A study of Mus musculus with 5 samples.

Results

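The receptors CXCR4 and CXCR2 and their ligands were followed in mouse blood cells sorted as neutrophils. They were 6 genes of the 19127 in the deposited table. The 6 were taken by symbol: the receptors Cxcr4 and Cxcr2, the atypical receptor Ackr3, and the chemokines Cxcl12, Cxcl1 and Cxcl2. All 6 symbols matched 1 row each. RNA sequencing had been done on 5 libraries of blood cells that were stained for Ly6G and sorted after red cell lysis, from male mice of 7 to 10 weeks at Zeitgeber time 13 (20 h on the clock). There were 2 libraries labelled BMALf/f x Mrp8Cre (called Bmal1-labelled here, B2 and B3 by their numbers) and 3 labelled CXCR4f/f x Mrp8Cre (called Cxcr4-labelled, C1, C2 and C3). All 5 carry a Cre driven by the Mrp8 (S100a8) promoter, known for its activity in the neutrophil lineage, and in each group a different gene is floxed. Without a group that lacks floxed genes, which genotype a difference belongs to cannot be told apart. Nothing in the labels ties each library to its own animal, and p-values then measure only the scatter among these 5 samples, some of which may be technical.

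CXCR4 and CXCR2 are G protein-coupled receptors with opposed roles in the life of a neutrophil. CXCL12, made by stromal and endothelial cells of the marrow, holds CXCR4-bearing neutrophils there and draws aged ones back. CXCL1 and CXCL2 act on CXCR2 and draw neutrophils out of the marrow and into inflamed tissue. ACKR3 binds CXCL12 without G protein signalling and removes it from the surroundings. In mouse neutrophils that stay in blood, CXCR2 is known to fall and CXCR4 to rise on the surface, in a daily cycle that depends on the clock protein BMAL1. BMAL1 with CLOCK binds the E-box, a short palindrome.

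Promoter sequences of the 6 genes were read from RefSeq (GRCm38.p6, 250 bases before to 50 after the start), and all 6 were matched. The E-box CACGTG, searched on both strands, was in none of the 6 windows, against 7.15% of the 32851 mouse promoters. The stretch before Cxcr4 is shown because it holds, in capitals, the longest palindrome of the 250 bases before the start. This palindrome, GCGCATGCGC, is known as the site of the factor NRF1, and on either strand it was in 319 promoters (0.971%). The stretches before Cxcl1 and Cxcl2, genes that lie 10755 bases apart on chromosome 5, are shown because their levels were unlike across the libraries. Their capitals mark the longest run that the 250 bases before both starts have in common, GGGAATTTCCCTGG, 14 bases that begin with a site of the kind NF-kappaB binds. On either strand this run was in 2 of the 32851 promoters (0.00609%), those of Cxcl1 and Cxcl2. A match is a description of letters.
Cxcr4, chr1:128592329-128592388, minus strand: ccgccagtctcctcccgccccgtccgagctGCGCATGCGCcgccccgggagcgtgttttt
Cxcl1, chr5:90891144-90891207, plus strand: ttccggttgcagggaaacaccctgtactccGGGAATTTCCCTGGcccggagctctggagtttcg
Cxcl2, chr5:90903772-90903835, plus strand: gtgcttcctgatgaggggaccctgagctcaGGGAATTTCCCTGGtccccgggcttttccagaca
The run in capitals begins 59 bases before the RefSeq start of Cxcr4, 71 before that of Cxcl1 and 97 before that of Cxcl2. Lined up on the run, the Cxcl1 and Cxcl2 stretches hold the same base at 32 of 64 positions.

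The libraries held between 356872 reads (Cxcr4-labelled C1) and 9101826 reads (Cxcr4-labelled C3) in the table. Values are the deposited normalised read counts, in which 1 read is worth 2.15 in Cxcr4-labelled C1 and between 0.117 and 0.301 in the others. The sorted cells were labelled neutrophils, and their marker genes were compared with those of other cells before the results. The 16 core neutrophil genes summed to 7716 and 5560 normalised read counts in Bmal1-labelled B2 and B3, and to 16124, 4784 and 441.7 in Cxcr4-labelled C1, C2 and C3. Ly6g itself had 6.31 and 5.16 in Bmal1-labelled B2 and B3, against 30.1 (14 reads), 0 and 1.05 in Cxcr4-labelled C1, C2 and C3. All 12 endothelial genes were detected in every library and summed to 5916 and 10754 in Bmal1-labelled B2 and B3, and to 6548, 11699 and 21053 in Cxcr4-labelled C1, C2 and C3. In Bmal1-labelled B3 and in Cxcr4-labelled C2 and C3 the endothelial sum was above the neutrophil sum. Cxcr4-labelled C3 had the lowest neutrophil and the highest endothelial sum, and results are also given without it. In such bulk samples, fewer cells of a type and less RNA per cell cannot be told apart.

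Of all the genes tested, none passed between the groups with the main test, limma on log2(value + 1). On this scale each difference is Bmal1-labelled minus Cxcr4-labelled, with a standard error (SE), and a call means a Benjamini-Hochberg adjusted p under 0.05 over all 14632 genes with a mean of at least 1 CPM (read counts scaled to the same total). limma called 0 genes (0%), with 612 at an unadjusted p under 0.05 (4.18%), and edgeR on whole reads called 0, with 524 (3.58%). DESeq2 called 13 (0.0888%), and none of the 6 chemokine axis genes was among them. All 6 passed the filter on low values, and 0 of 6 were called by limma, edgeR or DESeq2. The groups did not overlap for 2 of the 6, Cxcr4 and Cxcr2, both higher in the Bmal1-labelled libraries. Over all genes tested 18.8% did not overlap, 13.6% with the Bmal1-labelled libraries higher and 5.22% with them lower. Cxcr4 was also the 1 member with an unadjusted p under 0.05 by limma, as were 3.68% of all genes tested on the higher side.

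Both floxed genes were read first as a check on the labels. Arntl, which encodes BMAL1, stood at 4.81 and 27.6 normalised read counts in Bmal1-labelled B2 and B3, against 15.1, 1.90 and 1.05 in Cxcr4-labelled C1, C2 and C3, which overlap. Its difference was 1.49 (SE 1.24, adjusted p 0.9999 by limma), so no lower level of Arntl was seen in the libraries labelled for its deletion, and directions below are those between the labelled libraries. Values cover the whole gene, and which segment was floxed is not given in the sources used here, so reads from outside it are counted too.

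Cxcr4 (ENSMUSG00000045382, chromosome 1, 128588199 to 128592293, minus strand, GRCm38) is the gene floxed in the second group. It had 399 and 128 normalised read counts in Bmal1-labelled B2 and B3, against 15.1, 72.2 and 4.80 in Cxcr4-labelled C1, C2 and C3. The groups do not overlap, and C2 stands closest to the Bmal1-labelled ones. Bmal1-labelled libraries had a mean of 263 ± 192 (SD, n = 2), against 30.7 ± 36.3 (SD, n = 3) for Cxcr4-labelled ones. The difference was 3.58 (SE 1.02, 95% interval 1.25 to 5.91), unadjusted p 0.00735 and adjusted p 0.9999 by limma. Of the genes tested, 0.321% had a lower p. edgeR gave a difference of 3.09 (adjusted p 0.996). Without Cxcr4-labelled C3 the limma difference was 2.73 (adjusted p 0.930), and leaving out the other libraries in turn gave 2.76 to 4.55.

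Bmal1-labelled B2 and B3 held 1326 and 570 reads of Cxcr4, and reads remained in every Cxcr4-labelled library. They numbered 7 in C1, 342 in C2 and 41 in C3. At this depth the 7 reads give a value between 6.06 and 31.0 (exact 95% Poisson interval, for counting error only). The interval of C2, 64.8 to 80.3, lies above it, so these libraries of the same label differ by more than counting error.

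Cxcr2 (ENSMUSG00000026180, chromosome 1, 74153989 to 74161246, plus strand), the receptor for CXCL1 and CXCL2, had 1051 and 768 normalised read counts in Bmal1-labelled B2 and B3, against 426, 349 and 24.1 in Cxcr4-labelled C1, C2 and C3. The groups do not overlap, and Cxcr4-labelled C3 lies far below the other 4 libraries. The difference was 2.53 (SE 1.11, 95% interval -0.0034 to 5.07), unadjusted p 0.0502 and adjusted p 0.9999 by limma. It was 1.22 without Cxcr4-labelled C3 (adjusted p 0.930) and between 2.31 and 3.26 without each of the others. Cxcr2 is in neither genotype the floxed gene.

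**Figure D1:**
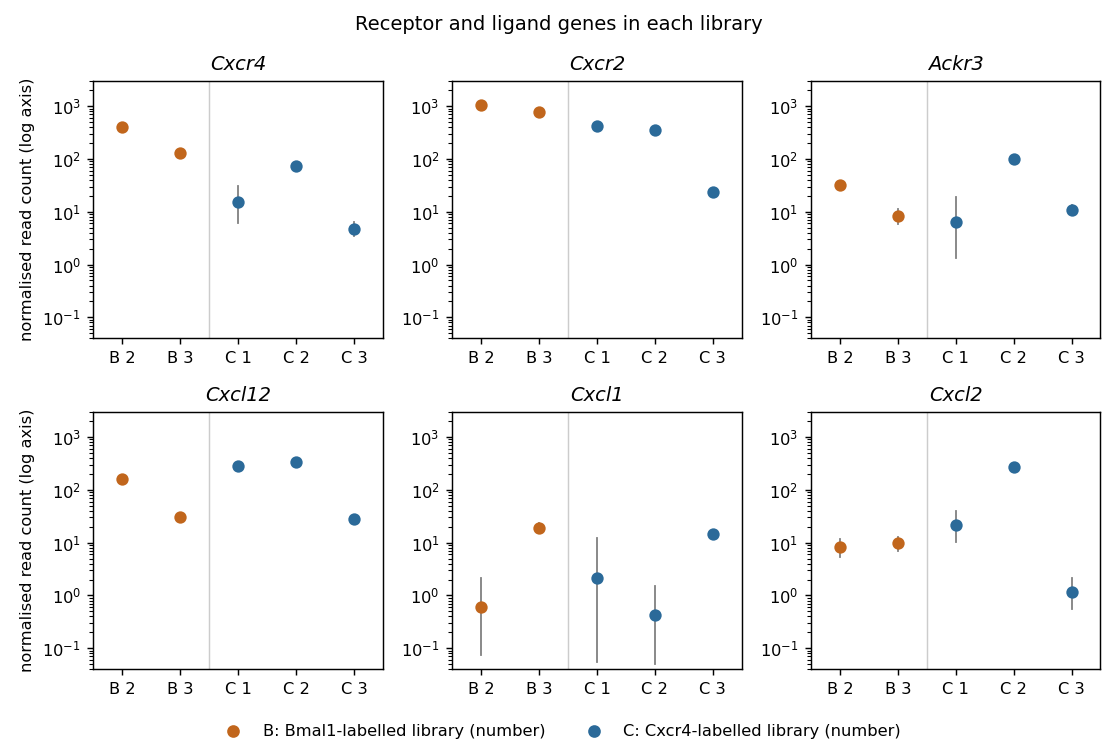
Normalised read counts (log axis) of the 6 genes in each library, Bmal1-labelled libraries (B) left of Cxcr4-labelled ones (C), with vertical lines for exact 95% Poisson intervals of the reads. Cxcr4 and Cxcr2 are higher in both B libraries than in any C library, and the other 4 genes overlap between the groups.

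Both receptors were then set against the neutrophil content of each library. Per 1000 normalised read counts of the core neutrophil markers, Cxcr4 had 51.7 and 23.0 in Bmal1-labelled B2 and B3, against 0.934, 15.1 and 10.9 in Cxcr4-labelled C1, C2 and C3. Cxcr2 had 136 and 138 on this scale in Bmal1-labelled B2 and B3, against 26.4, 73.0 and 54.6 in Cxcr4-labelled C1, C2 and C3. The groups still do not overlap for either receptor, but the order within the Cxcr4-labelled group changes: C3 is no longer the lowest, and C1 is. With columns scaled to equal neutrophil sums, the limma difference was 2.61 for Cxcr4 (SE 2.37, adjusted p 0.9999) and 1.53 for Cxcr2 (SE 2.41, adjusted p 0.9999). C1 also had the highest levels of genes of the secondary granules, which neutrophils make in the marrow. Ngp had 7.52 and 6.28 in Bmal1-labelled B2 and B3, against 1229, 15.8 and 25.6 in Cxcr4-labelled C1, C2 and C3. Ltf, for lactoferrin, had 6.31 and 3.14 in Bmal1-labelled B2 and B3, against 859, 22.8 and 15.7 in Cxcr4-labelled C1, C2 and C3. Both genes were lower in each Bmal1-labelled library than in any Cxcr4-labelled one, the opposite direction to the receptors. DESeq2 called both (adjusted p 0.0187 for Ltf and 0.0230 for Ngp, against 0.9999 for each by limma). Camp had 3.01 and 0.448 in Bmal1-labelled B2 and B3, against 282, 0.633 and 1.99 in Cxcr4-labelled C1, C2 and C3. Lcn2 had 264 and 170 in Bmal1-labelled B2 and B3, against 1040, 115 and 23.4 in Cxcr4-labelled C1, C2 and C3. Both of these granule genes overlapped, and the difference of Lcn2 was positive (0.57, SE 1.29). Of the 16 core neutrophil markers, 2 did not overlap with the Bmal1-labelled libraries lower, and 2 with them higher. These granule genes are part of the marker sum, and their part in the order was not tested. Monocytes also carry CXCR4, and the 5 monocyte markers summed to 330.7 and 186 in Bmal1-labelled B2 and B3, against 166, 79.8 and 38.5 in Cxcr4-labelled C1, C2 and C3. The 7 erythroid markers summed to 2996 and 2329 in Bmal1-labelled B2 and B3, against 2204, 87.2 and 184 in Cxcr4-labelled C1, C2 and C3. No monocyte marker and at most 2 of the erythroid markers were at 0 in a library. The 8 tissue macrophage markers summed to 63.4 and 84.3 in Bmal1-labelled B2 and B3, against 38.7, 5.07 and 48.8 in Cxcr4-labelled C1, C2 and C3. Of the 6 eosinophil markers 3 were in the table, and they summed to 28.9 and 19.7 in Bmal1-labelled B2 and B3, against 8.61, 0 and 0.117 in Cxcr4-labelled C1, C2 and C3. Among them Siglecf had 24.1 and 16.4 in Bmal1-labelled B2 and B3 and 0 in each Cxcr4-labelled library. Siglecf was 1 of the 13 genes called by DESeq2 (adjusted p 0.00399, against 0.9999 by limma). Ccr3 overlapped, with 3.91 and 3.36 in Bmal1-labelled B2 and B3, against 8.61, 0 and 0.117 in Cxcr4-labelled C1, C2 and C3. Il5ra was at 0.902 or less in every library. The 6 T and NK cell markers, of which Cd3g and Ncr1 were at 0 in every library, summed to 14.4 and 13.7 in Bmal1-labelled B2 and B3, against 4.31, 5.91 and 1.29 in Cxcr4-labelled C1, C2 and C3. Of the 11 marker sums taken, these 5 do not overlap between the groups and are higher in the Bmal1-labelled libraries, as both receptors are. The rest overlap. Among the rest, the platelet markers summed to 48.1 and 34.5 in Bmal1-labelled B2 and B3, against 43.1, 120.5 and 20.7 in Cxcr4-labelled C1, C2 and C3. The hepatocyte markers summed to 79.1 and 347.8 in Bmal1-labelled B2 and B3, against 148.5, 48.3 and 122.7 in Cxcr4-labelled C1, C2 and C3. The tissue macrophage sum was lowest in Cxcr4-labelled C2, whereas both receptors were lowest in C3. Only 3 of the 8 tissue macrophage markers had positive differences (median -0.09), and only Adgre1 did not overlap. It had 54.7 and 33.9 in Bmal1-labelled B2 and B3, against 19.4, 0.633 and 2.58 in Cxcr4-labelled C1, C2 and C3. Of the 6 T and NK cell markers only Cd3d passed the filter. The part of the 5 sums in the receptor levels was not tested.

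The balance between the receptors was read as the log2 ratio of Cxcr4 to Cxcr2 within each library, which hardly depends on how libraries are scaled. Per 100 normalised read counts of Cxcr2 there were 37.9 and 16.7 of Cxcr4 in Bmal1-labelled B2 and B3, against 3.54, 20.7 and 19.9 in Cxcr4-labelled C1, C2 and C3. The groups overlap: Cxcr4-labelled C2 and C3 lie above Bmal1-labelled B3, and C1 stands apart below all the others. The mean log2 ratio, with the pseudocount of 1, was -1.99 ± 0.84 in Bmal1-labelled libraries (SD, n = 2), against -3.04 ± 1.47 in Cxcr4-labelled ones (SD, n = 3). The difference of 1.05 had p = 0.6 in a two-sided exact permutation test over the 10 splits, where the smallest p possible is 0.1. It was 0.20 without Cxcr4-labelled C1, with its 7 reads of Cxcr4, and 0.46 without Bmal1-labelled B2, so it rests on both of these libraries.

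**Figure D2:**
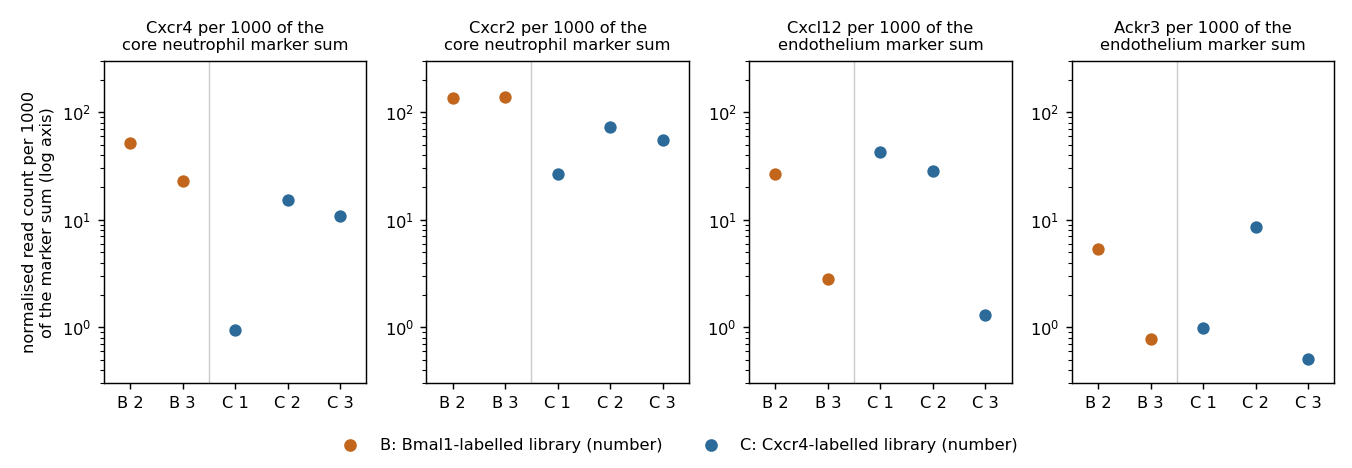
Cxcr4 and Cxcr2 per 1000 normalised read counts of the core neutrophil markers, and Cxcl12 and Ackr3 per 1000 of the endothelial markers, on log axes, Bmal1-labelled libraries (B) left of Cxcr4-labelled ones (C). Cxcr2 is nearly level in both B libraries (136 and 138), while Cxcr4 drops to 0.934 in C1.

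Ackr3 (ENSMUSG00000044337, chromosome 1, 90203980 to 90216751, plus strand), the atypical receptor for CXCL12, had 31.6 and 8.30 normalised read counts in Bmal1-labelled B2 and B3, against 6.46, 100.1 and 10.8 in Cxcr4-labelled C1, C2 and C3. Cxcr4-labelled C2 is the highest, Bmal1-labelled B2 the next, and the other 3 lie close together. The value in Cxcr4-labelled C1 is 3 reads, with a 95% Poisson interval of 1.33 to 18.9. The difference was -0.25 (SE 1.17), with an adjusted p of 0.9999 by limma, and its 95% interval ran from -2.94 to 2.44. Its sign turned without Bmal1-labelled B3 (0.65) and without Cxcr4-labelled C2 (0.89), and the difference was -0.66 without Cxcr4-labelled C3. ACKR3 is known on endothelium, and per 1000 of the endothelial marker sum Ackr3 still ranged from 0.771 to 5.34 over the Bmal1-labelled and from 0.512 to 8.55 over the Cxcr4-labelled libraries.

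Cxcl12 (ENSMUSG00000061353, chromosome 6, 117168535 to 117181367, plus strand), the ligand of CXCR4 and ACKR3, had 159 and 30.05 normalised read counts in Bmal1-labelled B2 and B3, against 279.8, 330.2 and 27.5 in Cxcr4-labelled C1, C2 and C3. Both libraries numbered 3 are low and the other 3 are high, so the groups overlap. The difference was -0.98 (SE 1.11, 95% interval -3.52 to 1.57), with an adjusted p of 0.9999 by limma. Without Cxcr4-labelled C3 it was -2.11 (unadjusted p 0.0251, adjusted p 0.930), and without Bmal1-labelled B3 it was 0.21. Cxcl12 is a product of stromal and endothelial cells rather than of neutrophils. The 8 fibroblast and stroma markers summed to 102 and 83.4 in Bmal1-labelled B2 and B3, against 96.9, 166 and 53.7 in Cxcr4-labelled C1, C2 and C3. Per 1000 of the endothelial marker sum, Cxcl12 had 26.8 and 2.79 in Bmal1-labelled B2 and B3, against 42.7, 28.2 and 1.31 in Cxcr4-labelled C1, C2 and C3. Both libraries numbered 3 thus also had the least Cxcl12 for their endothelial content, and the part of these other cells in the level was not tested.

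Cxcl1 (ENSMUSG00000029380, chromosome 5, 90891241 to 90893115, plus strand), a ligand of CXCR2, had 0.601 and 19.1 normalised read counts in Bmal1-labelled B2 and B3, against 2.15, 0.422 and 14.6 in Cxcr4-labelled C1, C2 and C3. It was high in both libraries numbered 3, with 85 and 125 reads, and had 2 reads or fewer in each of the others. The groups overlap, and the difference was 0.46 (SE 1.45, 95% interval -2.86 to 3.78; limma adjusted p 0.9999). The sign turned without Bmal1-labelled B3 (-1.36) and without Cxcr4-labelled C2 (-0.31), and the difference was 1.42 without Cxcr4-labelled C3.

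Cxcl2 (ENSMUSG00000058427, chromosome 5, 90903871 to 90905938, plus strand), the other CXCR2 ligand, had 8.12 and 9.64 normalised read counts in Bmal1-labelled B2 and B3, against 21.5, 276.8 and 1.17 in Cxcr4-labelled C1, C2 and C3. The Bmal1-labelled libraries are alike and lie inside the wide range of the Cxcr4-labelled ones, where C2 alone has 1311 reads. The difference was -1.28 (SE 1.70, 95% interval -5.17 to 2.62; limma adjusted p 0.9999). edgeR gave -3.50 (adjusted p 0.996) and DESeq2 -3.52 (adjusted p 0.873). Without Cxcr4-labelled C2 the limma difference was 0.49, and without Cxcr4-labelled C3 it was -3.01 (adjusted p 0.930). Cxcl1 and Cxcl2, with the same 14-base run before their starts, were thus high in different libraries, Cxcl1 in both numbered 3 and Cxcl2 in Cxcr4-labelled C2.

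**Figure D3:**
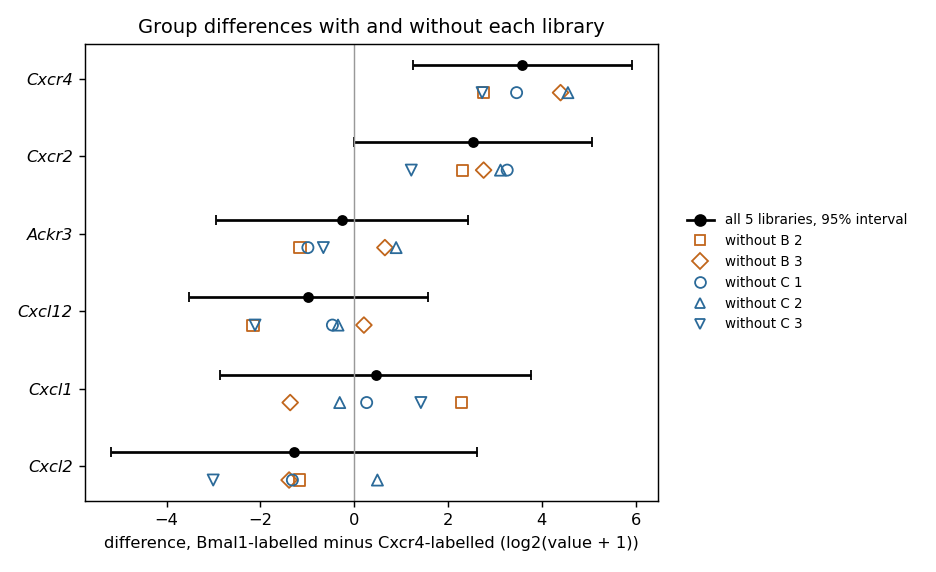
Differences of Bmal1-labelled minus Cxcr4-labelled libraries on the log2(value + 1) scale for the 6 genes, with 95% intervals from limma (black) and the values with each library left out (open marks). Cxcr4 runs from 2.73 to 4.55 and Cxcr2 from 1.22 to 3.26 with 1 library left out, all above 0, while the other 4 genes fall on both sides of 0.

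Levels were compared between genes per kilobase of merged exons. In the Bmal1-labelled libraries Cxcr2 stood highest, at 298 ± 65.7 normalised read counts per kilobase (SD, n = 2), followed by Cxcr4 at 146 ± 106. Cxcl12 (11.5 ± 11.1), Ackr3 (5.95 ± 4.91), Cxcl1 (5.24 ± 6.96) and Cxcl2 (4.29 ± 0.521) came next and did not differ among themselves beyond their spread. In the Cxcr4-labelled libraries Cxcr2 was again highest, at 87.5 ± 70.0 (SD, n = 3). It was followed by Cxcl2 (48.3 ± 74.3), Cxcl12 (26.0 ± 19.8), Cxcr4 (17.0 ± 20.1), Ackr3 (11.7 ± 15.8) and Cxcl1 (3.06 ± 4.14), where neighbours overlap within 1 SD. The place of Cxcl2 rests on Cxcr4-labelled C2, where it stood at 134 per kilobase, above Cxcr2 at 115. Without C2 the Cxcl2 mean was 5.49, below Cxcl12 at 18.8, and without Cxcr4-labelled C1 it was 67.2, above Cxcr2 at 61.3.

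The other CXC and atypical receptors had at most 74.1 normalised read counts in any library. Of 7 in the table, 5 passed the filter, with 3 positive and 2 negative differences and none called (median 1.10, against 0.11 over all genes tested). This median was 0.34 without Bmal1-labelled B2, 0.26 without Bmal1-labelled B3 and 0.32 without Cxcr4-labelled C2. Cxcr1, the other receptor for CXCR2 ligands, had 19 and 3 reads in Bmal1-labelled B2 and B3, against 1, 0 and 0 in Cxcr4-labelled C1, C2 and C3. Ackr2, a scavenger of CC chemokines, was the 1 of the 5 tested genes without overlap, by a narrow margin. It had 25.9 and 28.5 normalised read counts in Bmal1-labelled B2 and B3, against 30.1 (14 reads), 55.9 and 74.1 in Cxcr4-labelled C1, C2 and C3. Its difference was -0.86 (SE 0.58, adjusted p 0.9999 by limma). Ackr1, which binds many chemokines on venules and red cells, was at 15.9 in Bmal1-labelled B3 and at 2.15 or less in the other 4 libraries. Ackr4 averaged 16.4 in Bmal1-labelled and 10.5 in Cxcr4-labelled libraries, and Cxcr5 averaged 1.28 and 4.01 in the same order, and both overlapped. Cxcr3 and Cxcr6, receptors of lymphocytes, did not pass the filter and were at 1.503 or less in every library. Cxcr3 had 5 and 6 reads in Bmal1-labelled B2 and B3, against 0 in each of Cxcr4-labelled C1, C2 and C3, also without overlap.

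Of the other CXC chemokines 9 were in the table and 7 were tested, with 4 positive and 3 negative differences, none called, and a median of 0.05. The platelet chemokine Ppbp, a CXCR2 ligand after processing, had 36.1 and 17.3 in Bmal1-labelled B2 and B3, against 17.2, 12.2 and 8.20 in Cxcr4-labelled C1, C2 and C3, without overlap by a narrow margin. Pf4, also of platelets, lay between 3.16 and 6.61 in the 5 libraries. Cxcl9, Cxcl10 and Cxcl16 overlapped between the groups. Cxcl10 had a mean of 25.8 ± 27.9 in Bmal1-labelled libraries (SD, n = 2), against 39.5 ± 52.4 in Cxcr4-labelled ones (SD, n = 3), and was highest in Cxcr4-labelled C3, at 99.4. Cxcl9 averaged 38.6 in Bmal1-labelled and 32.2 in Cxcr4-labelled libraries, and Cxcl16 averaged 40.1 and 44.3 in the same order. Cxcl14 was at 16.3 in Cxcr4-labelled C2 and at 2.15 or less elsewhere. Cxcl15, Cxcl3 and Cxcl13 were low, with highest values of 12.9, 0.633 and 2.22. The median turned to -1.31 without Bmal1-labelled B3.

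MIF and HMGB1 also act through CXCR4, and CD74 is the partner of CXCR4 in binding MIF. All 3 of their genes had negative differences (median -0.61) and none was called. Without Cxcr4-labelled C3 the median was -0.17 and 1 of the 3 was positive, and without Cxcr4-labelled C1 it was -1.44. Cd74, better known as the invariant chain of MHC class II, had 39.4 and 25.3 in Bmal1-labelled B2 and B3, against 86.1, 301.3 and 61.4 in Cxcr4-labelled C1, C2 and C3. The groups do not overlap, and the difference was -1.85 (SE 0.71), unadjusted p 0.0305 and adjusted p 0.9999 by limma. B cells carry much Cd74, and their 6 markers summed to 14.1 and 17.5 in Bmal1-labelled and to 19.4, 9.71 and 11.1 in Cxcr4-labelled libraries. Hmgb1 averaged 53.0 in Bmal1-labelled and 89.2 in Cxcr4-labelled libraries, and Mif averaged 2.02 and 5.09 in the same order. Both overlapped.

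Genes that carry the receptor signal inward were mostly on the positive side. Of 19 signalling genes tested, 17 had positive and 2 negative differences, with a median of 1.44, against 8079 positive of 14632 and a median of 0.11 over all genes tested. None was called, and 4 had an unadjusted p under 0.05 by limma. Those were Prex1 (1.58, SE 0.62), Pik3r5 (2.12, SE 0.87), Pik3r6 (2.27, SE 0.94) and Pik3cg (2.26, SE 0.98). They encode the Rac activator P-REX1 and the regulatory and catalytic subunits of PI3K gamma, which G protein beta-gamma subunits activate. Prex1 had 451 and 298 normalised read counts in Bmal1-labelled B2 and B3, against 215, 145.9 and 57.0 in Cxcr4-labelled C1, C2 and C3. Pik3cg overlapped, with 216 and 129 in Bmal1-labelled B2 and B3, against 157, 12.7 and 18.7 in Cxcr4-labelled C1, C2 and C3. The broadly expressed Gnai2, which encodes the G protein subunit coupled to both receptors, differed by less than its SE (0.10, SE 0.50). Core neutrophil markers had positive differences for 12 of 16 genes (median 0.84), and their part in the list's values was not tested. The median of the signalling list was 0.65 without Cxcr4-labelled C3 and 1.99 without Cxcr4-labelled C1.

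Receptor desensitisation and trafficking genes had 12 of 16 positive differences and a median of 0.70, with none called. Rgs2, a regulator that shuts off G proteins, had 733 and 433 in Bmal1-labelled B2 and B3, against 245, 101 and 14.8 in Cxcr4-labelled C1, C2 and C3 (difference 2.94, SE 1.01, limma adjusted p 0.9999). Grk6, a kinase that phosphorylates CXCR4, had 139.8 and 77.4 in Bmal1-labelled B2 and B3, against 51.7, 28.1 and 11.01 in Cxcr4-labelled C1, C2 and C3 (difference 1.99, SE 0.71, adjusted p 0.9999). Grk2, a kinase that desensitises both receptors, differed by 1.27 (SE 0.58). It was without overlap by a narrow margin, with 206 in Bmal1-labelled B3 and 200 in Cxcr4-labelled C1. Rgs14 differed by 3.07 (SE 1.46) and overlapped, with 34.6 and 20.6 in Bmal1-labelled B2 and B3, against 25.8, 0 and 0.351 in Cxcr4-labelled C1, C2 and C3. The beta-arrestin genes Arrb1 and Arrb2 differed by less than their SE. The list's median was 0.39 without Cxcr4-labelled C3.

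Of the partners in marrow retention and release, 10 were in the table and 8 were tested, with 5 positive and 3 negative differences, a median of 1.13 and none called. Itga4, the alpha 4 chain of VLA-4, which anchors neutrophils to VCAM1 in the marrow, had 999 and 603 in Bmal1-labelled B2 and B3, against 377, 163 and 24.4 in Cxcr4-labelled C1, C2 and C3 (difference 2.74, SE 1.00, limma adjusted p 0.9999). Csf3r, the receptor for the release factor G-CSF and also 1 of the core neutrophil markers, had 2339 and 1338 in Bmal1-labelled B2 and B3, against 899.7, 443 and 39.6 in Cxcr4-labelled C1, C2 and C3 (difference 2.81, SE 1.15, adjusted p 0.9999). Mmp9 (2.80, SE 1.24) overlapped between the groups. Kitl, a stromal and endothelial factor, had a difference of -1.34 (SE 0.81), likewise with overlap. Gfi1, a repressor needed for neutrophil development, was at 0 in all 5 libraries, and Elane was at 0.224 or less.

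Transcription factors known at these genes had 8 of 10 positive differences and a median of 0.30, with none called. Clock, the partner of BMAL1, had a difference of -0.15 (SE 0.56). Cebpd differed by 1.49 (SE 0.63) without overlap and Cebpb by 2.36 (SE 1.28) with overlap, and both encode C/EBP factors of myeloid inflammation. Spi1, which encodes the myeloid factor PU.1, differed by 2.18 (SE 1.08) and overlapped. Nrf1 (0.35, SE 0.61) and the NF-kappaB subunit genes Nfkb1 (0.01, SE 0.49) and Rela (0.17, SE 0.54) differed by less than their SE.

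**Figure D4:**
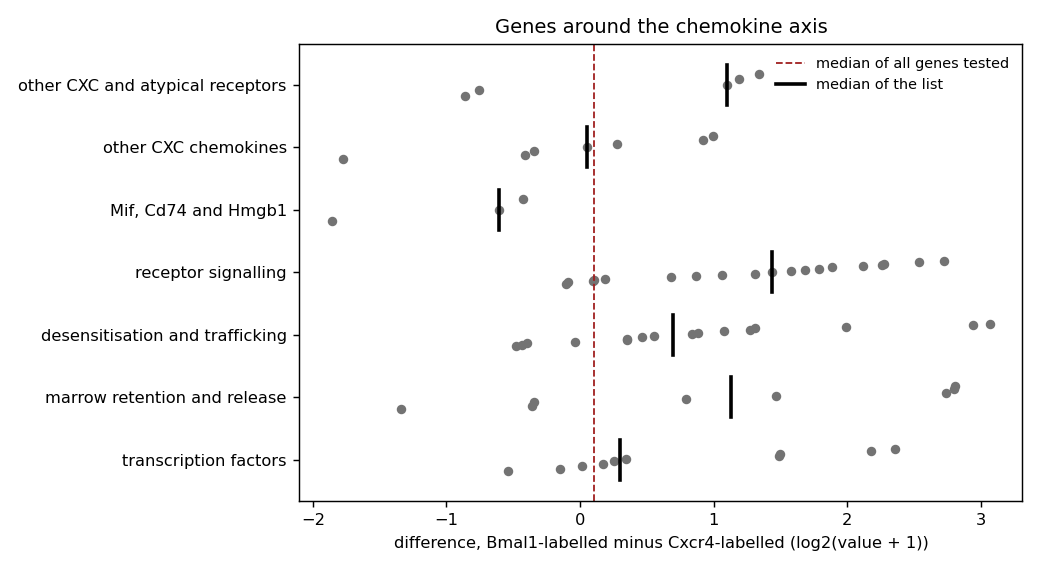
Differences of Bmal1-labelled minus Cxcr4-labelled libraries on the log2(value + 1) scale for the tested genes of 7 lists around the axis (points), with each list's median (black bar) and the median of all genes tested, 0.11 (dashed line). Signalling genes lie mostly to the right (17 of 19 positive), while Mif, Cd74 and Hmgb1 lie to the left.

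Genes with the most similar profiles were sought among tested genes with a mean of at least 10 CPM. Likeness was the root mean square (RMS) difference of log2(value + 1) over the 5 libraries, after each gene was centred on its mean, so 0 means the same pattern. The genes nearest to Cxcr4 were Hist1h2bc, a histone gene (RMS 0.41), Itgax, the integrin chain CD11c (0.64), Gpr35 (0.65), 1600010M07Rik (0.69) and Arg2 (0.69). Cxcr2 was matched much more closely, by Cd300lb (0.093), Tlr13 (0.12), Il1f9 (0.14), Fyb (0.18) and Mirt1 (0.22). Cd300lb had 303 and 191 normalised read counts in Bmal1-labelled B2 and B3, against 112, 87.8 and 6.32 in Cxcr4-labelled C1, C2 and C3.

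The ligands and Ackr3 had other neighbours. For Cxcl12 these were Ebf1 (RMS 0.25), Sparcl1 (0.28), Col15a1 (0.29), Jag2 (0.32) and Rgcc (0.32). Sparcl1, which encodes a matrix protein of vessels, had 319.6 and 52.2 in Bmal1-labelled B2 and B3, against 491, 975.1 and 61.1 in Cxcr4-labelled C1, C2 and C3, with both libraries numbered 3 low as for Cxcl12. For Ackr3 the nearest was Dll1, a Notch ligand (0.11), and Frmd6 (0.35), Zbtb16 (0.38) and Pkn3 (0.40) were also among the nearest. Cxcl1 was nearest to Bok (0.20), Pdk4 (0.28), Art3 (0.29), Col4a4 (0.29) and the cytokine gene Il1a (0.31), which had 14.7 and 104 in Bmal1-labelled B2 and B3, against 17.2, 8.44 and 104.7 in Cxcr4-labelled C1, C2 and C3. Cxcl2 was nearest to Acod1, an enzyme gene of activated myeloid cells (0.46), and Cd14, the lipopolysaccharide co-receptor (0.54), and more distantly to Smpdl3b (0.78), Stfa1 (0.79) and Tcf7 (0.79). Acod1 and Cd14 had 223 and 275.3 in Cxcr4-labelled C2 and at most 28.0 in any other. Among the 6 genes the closest pair was Cxcr4 and Cxcr2 (RMS 1.13), and the most distant was Cxcl1 and Cxcl2 (RMS 3.59).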

How the data were processed

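The deposited table holds normalised read counts, a signal per gene scaled by the authors by a method not given in the sources used here; annotation and strand setting are not given either. CASAVA 1.8.2, cutadapt, RSEM 1.2.3 and the build GRCm38 appear in the submitters' processing notes, with no role or order. Per the labels' protocols, polyA RNA was amplified with the Ovation Single Cell kit before library preparation. Dividing each column by its smallest step gave whole reads for 100% of values (tolerance 0.01). Symbols (18847 of 19127 identifiers) and positions came from GENCODE M21 (GRCm38). limma 3.58.1 (R 4.3.3) was run on log2(value + 1), its variance prior following mean level (trend), 3 residual and 5.36 prior degrees of freedom, two-sided, on genes whose mean CPM reached 1. edgeR 4.0.16 (quasi-likelihood, TMM) and DESeq2 1.42.0 were run on recovered reads. The main limma fit and the edgeR fit were checked on simulated counts. DESeq2, the replicate block, the marker scalings and the permutation test were not. The simulated counts had a fixed dispersion that was not taken from these libraries. The check therefore does not show what these tests could detect here. No library pair was a duplicate (chi-square per degree of freedom of 10.5 or more).

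Named were the 6 genes, every measured gene of the 3 CXC and ligand lists, up to 4 genes per other list with the smallest limma p, Arntl, and the 5 nearest profiles per gene, of which 1 is not reported here. Genes named besides these (Gnai2, Arrb1, Arrb2, Gfi1, Elane, Clock, Nrf1, Nfkb1, Rela and the markers Ly6g, Ngp, Ltf, Camp, Lcn2, Siglecf, Ccr3, Il5ra, Adgre1, Cd3d, Cd3g and Ncr1) were chosen after their values were seen. The members and lists were chosen with earlier results of these data known. Alternatives were the pseudocount, the filter, 5 scalings, the prior, the test tool, a replicate block and leaving out each library. The endothelial scaling, and the list medians and levels per kilobase without each library, were added after the data were seen.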

Additional observations from a re-analysis of the deposited data

How the results depend on the processing

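Positive differences for Cxcr4 (2.61 to 4.55) and Cxcr2 (1.22 to 3.26) were found under each of the 18 alternatives run, with adjusted p-values of 0.190 and 0.240 or more. The count of called genes was 0 under each alternative except DESeq2, which gave 13. Leaving out 1 library at a time, where a lone Bmal1-labelled library is assumed to vary like the other group, gave 2.73 to 4.55 for Cxcr4, 1.22 to 3.26 for Cxcr2, -2.16 to 0.21 for Cxcl12, -1.36 to 2.28 for Cxcl1, -3.01 to 0.49 for Cxcl2 and -1.16 to 0.89 for Ackr3. Signs turned without Bmal1-labelled B3 for Ackr3 (0.65), Cxcl1 (-1.36) and Cxcl12 (0.21), and without Cxcr4-labelled C2 for Ackr3 (0.89), Cxcl1 (-0.31) and Cxcl2 (0.49). The cause of these turns was not tested. Equal neutrophil and equal endothelial sums moved the median of all genes to -0.84 and 0.58, against 0.11. They also turned the sign of Cxcl1 (-0.53, equal neutrophil sums) and Ackr3 (0.28, equal endothelial sums), but relative to the median of all genes these were 0.31 and -0.30, against 0.35 and -0.36 with the deposited scaling. Relative to the same medians Cxcr4 was at 3.45 and 3.50 and Cxcr2 at 2.37 and 2.49. The log2 ratio of Cxcr4 to Cxcr2 differed by 0.20 to 1.64 without 1 library. The median of Mif, Cd74 and Hmgb1 ran between -1.44 without Cxcr4-labelled C1 and -0.17 without C3. That of other CXC chemokines ran between -1.31 without Bmal1-labelled B3 and 0.49 without B2. Libraries share the numbers 2 and 3 between groups, with no label that ties them. Deviations of same-numbered libraries correlated across genes at 0.28 and 0.39. The deviations of the 2 Bmal1-labelled libraries mirror each other, so these 2 values are not independent. The limma fit with the replicate block on these 2 pairs called 0 genes, with 2183 at an unadjusted p under 0.05. Cxcr4-labelled C1 has no partner in the block, so the block's differences are the same as those without C1. Under the block the differences were 3.46 for Cxcr4, 3.26 for Cxcr2, -0.46 for Cxcl12, 0.27 for Cxcl1, -1.32 for Cxcl2 and -0.99 for Ackr3. At the depth of Cxcr4-labelled C1, 3 reads are worth 6.46 normalised read counts, which limits what can be said of low genes there.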
